A study of Homo sapiens with 27 samples.

Results

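A set of 10 genes of the extracellular matrix, chosen by symbol, was followed through the RNA-seq counts of T47D cells that carried a truncated GATA3. They were DCN, LUM, BGN, SPARC, LOX, LOXL2, FN1, POSTN, THBS1 and TNC, 10 of the 26485 genes in the table. Their choice rested partly on how some of them differed from control in these same libraries, so each value against control is given as a description, without a p-value. T47D is an established line of luminal breast cancer and keeps its own wild-type GATA3. Pools of these cells were infected with lentivirus, selected with puromycin and grown stably. The pools carried an empty vector (control) or a Ty1-tagged mutant of GATA3, a transcription factor of the luminal epithelium that reads DNA through a pair of zinc fingers. The Splice del mutant has lost the wild-type sequence of the second finger, and the frameshift mutants C321fs and A333fs keep a portion of it. There was 1 pool per line, each sequenced as 3 libraries below passage 10. The p-values therefore measure the spread between libraries of a pool, and any other way in which a pool differed cannot be told apart from its mutant. The sample descriptions and the methods of the study name different growth media.

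Decorin (DCN), lumican (LUM) and biglycan (BGN) are small leucine-rich proteoglycans that bind collagen fibrils and growth factors. SPARC, thrombospondin-1 (THBS1), tenascin-C (TNC) and periostin (POSTN) are matricellular proteins, which are secreted into the matrix and act on the contact of cells with it more than on its strength. Fibronectin (FN1) is the fibrillar scaffold that integrins hold, and lysyl oxidase (LOX) and its relative LOXL2 crosslink collagen and elastin. In breast tissue most of these genes are known from stromal fibroblasts, and in epithelial tumour cells several of them are used as marks of a mesenchymal programme.

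Between 27872208 and 36788024 fragments were counted on genes in each library, and 14789 genes passed the filter on low counts. Of the 10 genes, 6 passed it (DCN, LUM, SPARC, LOX, FN1 and THBS1). Levels are counts over library size (CPM) scaled by TMM, whose factors were 0.884 to 0.943 in the control libraries and 1.01 to 1.05 in the mutant libraries. All 8 luminal markers were counted in every line, with a summed level of 17138 to 20415 CPM in control and 10983 to 13931 CPM over the mutant lines. KRT8, a keratin of luminal cells, was the most abundant of them. Of 10 fibroblast markers, 5 (COL1A2, PDGFRA, PDGFRB, FAP and PRRX1) had at most 3 counts in every library. The summed fibroblast level was 54.5 to 66.3 CPM in control, 42.3 to 51.5 in C321fs, 46.3 to 51.9 in Splice del and 32.3 to 35.4 in A333fs, most of it COL1A1. The 7 basal or myoepithelial markers summed to 16.39 to 18.02 CPM in control, 17.7 to 21.8 in C321fs, 15.0 to 17.6 in Splice del and 23.1 to 25.8 in A333fs, most of it ACTA2. Their part in the levels of A333fs cells was not tested. The 5 endothelial markers summed to 1.35 to 2.81 CPM over all lines, led by CLDN5, and the 5 immune markers to 3.49 to 6.20 CPM, led by CD68. Of these markers, KRT5, PECAM1, CDH5, VWF, PTPRC and CD3E were also at or under 3 counts throughout. The deviation of log2 CPM from each gene's mean over the 12 libraries changed with the GC content of the exons. Its slope per 10 percentage points was 0.15 to 0.23 in the control libraries and -0.17 to 0.06 in the mutant libraries. In bulk RNA, a change in the number of cells that express a gene and a change in its RNA per cell cannot be told apart.

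Decorin stood out by its pattern, near 0 in control and C321fs cells and clearly counted in the other two lines. DCN had 3, 1 and 2 counts in the control libraries and 1, 0 and 1 in the C321fs libraries. It had 216, 225 and 164 counts in the Splice del libraries and 383, 419 and 378 in the A333fs libraries. All 6 libraries of Splice del and A333fs lay above all 6 libraries of control and C321fs, and A333fs lay above Splice del without overlap. The level was 5.98 ± 0.585 CPM (SD, n = 3) in Splice del and 12.3 ± 1.14 CPM in A333fs cells. Per scaled library size, the summed counts of Splice del stood 89.0 to 1 over control, with a 95% interval of 40.7 to 244 for counting error alone (Clopper-Pearson). The same ratio was 183 in A333fs cells (83.6 to 498). Over C321fs the ratios were 276 (76.2 to 2287) in Splice del and 566 (156 to 4683) in A333fs cells. With the low line set to a floor of 3 counts per library, the ratios over control were 59.4 and 122 and those over C321fs were 61.3 and 126. C321fs and control were both at the floor, so no fold was taken between them. A333fs exceeded Splice del by 1.04 on the log2 scale (standard error 0.11).

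**Figure D1:**
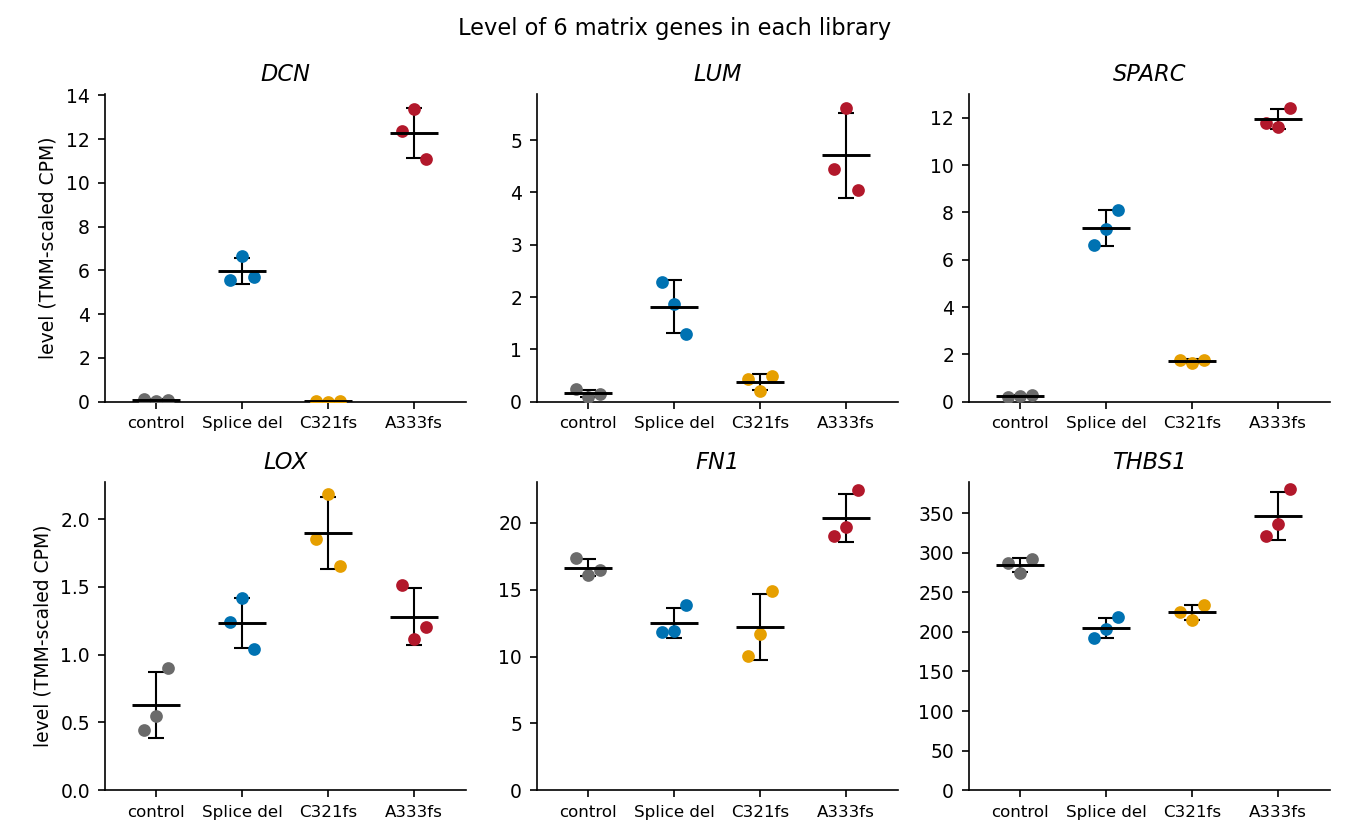
Level of DCN, LUM, SPARC, LOX, FN1 and THBS1 in each library, as TMM-scaled CPM on linear axes from 0. Points are libraries, black lines the mean of 3 and bars the SD. DCN reached 12.3 CPM in A333fs cells with control and C321fs near 0, whereas FN1 and THBS1 were highest in A333fs and lower than control in the other mutant lines.

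Lumican, the neighbour of decorin on chromosome 12, was also highest in A333fs and next in Splice del cells, in both at a lower level than decorin. LUM had 7, 3 and 4 counts in control, 14, 6 and 15 in C321fs, 89, 63 and 37 in Splice del and 138, 176 and 138 in A333fs libraries. The libraries of A333fs, Splice del and C321fs did not overlap in that order, while those of C321fs and control did. The level was 0.158 ± 0.0725 CPM (SD, n = 3) in control, 0.373 ± 0.146 in C321fs, 1.82 ± 0.505 in Splice del and 4.71 ± 0.812 in A333fs cells. Against control, the log2 fold change was 1.25 (standard error 0.53) in C321fs, 3.53 (0.37) in Splice del and 4.87 (0.32) in A333fs cells. LUM passed the filter on low counts through the Splice del and A333fs libraries, where it was high, so its differences from C321fs, 3.62 (0.27) in A333fs and 2.28 (0.31) in Splice del, are given without a p-value. Between the lines through which it passed, LUM was higher in A333fs than in Splice del by 1.34 (0.20, adjusted p = 2.1e-04, edgeR's quasi-likelihood test adjusted by Benjamini-Hochberg over all tested genes). The exons of LUM and DCN are low in GC, at 38.2% and 39.8%, with 6.53% and 12.1% of tested genes lower. With each library's dependence on exon GC and exon length taken out, LUM stood 0.93, 3.25 and 4.55 over control in C321fs, Splice del and A333fs cells, and DCN in A333fs over Splice del by 0.99.

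Both genes lie on the minus strand of hg38, LUM at chr12:91103455-91111765 and DCN at chr12:91145258-91183029, 33493 bases apart with no annotated gene between them. KERA (keratocan) and EPYC (epiphycan), 2 more small leucine-rich proteoglycans, follow on the far side of LUM, 86904 and 140232 bases from DCN. Neither had more than 1 count in any of the 12 libraries. On the other side the nearest gene, C12orf79, was 801947 bases away and had at most 4 counts. The higher counts of this stretch were thus seen at DCN and LUM and at no other of its proteoglycan genes.

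**Figure D2:**
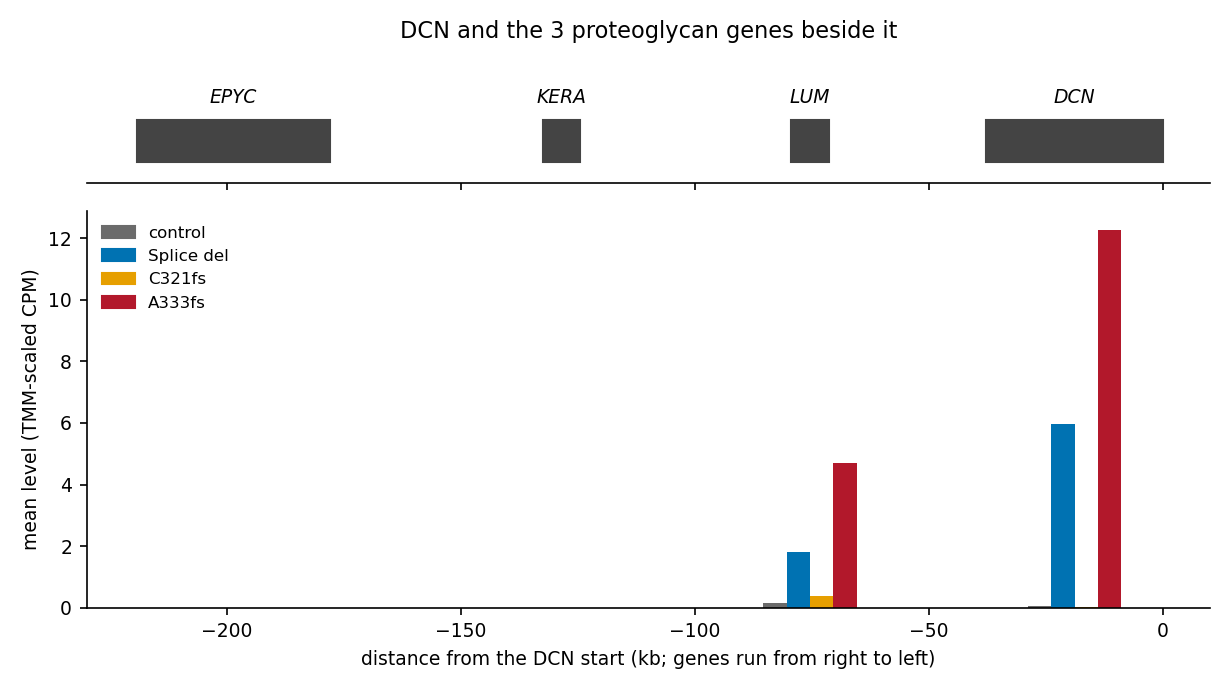
Position of DCN, LUM, KERA and EPYC as distance from the DCN start in kb (top, to scale) and their mean level in TMM-scaled CPM in the 4 lines (bottom, bars from 0). Bars for KERA and EPYC do not rise visibly above 0, and DCN and LUM are highest in A333fs cells.

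Biglycan, the relative of decorin on the X chromosome, did not share this pattern. BGN had 6, 0 and 2 counts in control, 12, 6 and 9 in C321fs, 0, 2 and 1 in Splice del and 5, 0 and 5 in A333fs libraries. C321fs gave the most counts, and both Splice del and A333fs, where DCN was counted clearly, had few. BGN did not pass the filter. Its annotated span overlaps that of HAUS7, and whether this cost either gene any counts was not tested.

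SPARC, a collagen-binding matricellular glycoprotein, was higher than control in all 3 mutant lines. Its counts were 6, 8 and 8 in control, 58, 47 and 55 in C321fs, 256, 247 and 233 in Splice del and 365, 364 and 423 in A333fs libraries. No library of one line overlapped those of another, so the order A333fs, Splice del, C321fs and control was complete. The mean level was 0.246 ± 0.0382 CPM (SD, n = 3) in control, 1.73 ± 0.0834 in C321fs, 7.34 ± 0.756 in Splice del and 11.9 ± 0.424 in A333fs cells. The log2 fold change against control was 2.79 (standard error 0.22) in C321fs, 4.87 (0.17) in Splice del and 5.58 (0.16) in A333fs cells. Each pair of mutant lines also differed by edgeR's test. A333fs exceeded C321fs by 2.79 (0.11, adjusted p = 5.5e-11), Splice del exceeded C321fs by 2.08 (0.11, adjusted p = 3.5e-09) and A333fs exceeded Splice del by 0.71 (0.09, adjusted p = 5.2e-05). SPARC lies at chr5:151661096-151687054 on the minus strand, and its exon GC content of 47.0% is closer to the middle of the tested genes, with 41.0% of them lower. With GC and length dependence taken out, the values against control were 2.73, 4.79 and 5.47. A transcript annotated across its start, CTB-113P19.1, had at most 1 count in any library. The flanking genes FAT2 and ATOX1 were not called in any mutant line, with log2 fold changes from -0.38 to 0.51.

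**Figure D3:**
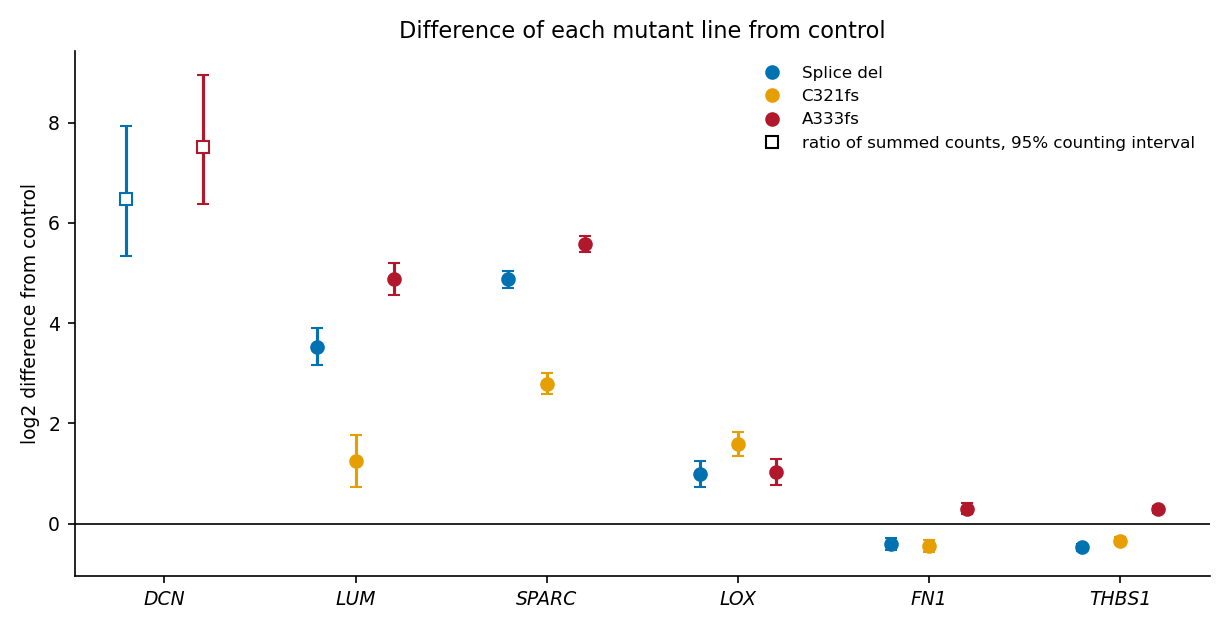
Log2 difference of each mutant line from control. Filled circles are edgeR's log2 fold changes with 1 standard error. Open squares are ratios of summed DCN counts with their 95% counting interval, and C321fs has none for DCN because both lines were at the floor. SPARC is above 2.7 in all 3 lines, and FN1 and THBS1 lie within 0.5 of 0.

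The immediate upstream sequence of 4 of these genes is shown because the lines differ in a DNA-binding protein and these genes had enough counts to be compared. Windows from the RefSeq promoter table of GRCh38.p14 were used for 7 of the 10 genes, and none for DCN, LUM and LOXL2. From it the 250 bases before the annotated start were taken, on the strand of the gene. They were searched on both strands for the GATA motif, the word GATA with A or T before it and A or G after it. At the peaks of these mutants, the study reports a partial motif, GAT with A or T before it, in place of the full one. The partial motif was not searched for, so a window without a match may still hold it. SPARC (chr5:151686916-151687165, minus strand) held 1 match, AGATAG, from 76 to 71 bases before the start, in capitals. LOX (chr5:122078260-122078509, minus), FN1 (chr2:215436069-215436318, minus) and THBS1 (chr15:39580829-39581078, plus) held none in this window, and neither did BGN, POSTN and TNC. Of all 35116 windows of this length in the table, 22.3% held a match. The annotation of the count file starts SPARC 139 bases and LOX 101 bases further upstream than RefSeq does. LOX has 3 starts in the RefSeq promoter table, and only the window at the one farthest upstream was searched.
SPARC: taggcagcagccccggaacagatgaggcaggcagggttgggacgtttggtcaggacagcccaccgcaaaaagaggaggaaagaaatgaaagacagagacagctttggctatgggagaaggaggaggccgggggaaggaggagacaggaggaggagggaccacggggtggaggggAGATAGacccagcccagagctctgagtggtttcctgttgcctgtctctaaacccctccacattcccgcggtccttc
LOX: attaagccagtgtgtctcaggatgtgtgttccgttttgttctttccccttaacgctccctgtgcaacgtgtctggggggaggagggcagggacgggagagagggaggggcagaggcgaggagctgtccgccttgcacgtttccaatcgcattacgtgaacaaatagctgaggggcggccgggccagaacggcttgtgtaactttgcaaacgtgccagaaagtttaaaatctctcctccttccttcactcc
FN1: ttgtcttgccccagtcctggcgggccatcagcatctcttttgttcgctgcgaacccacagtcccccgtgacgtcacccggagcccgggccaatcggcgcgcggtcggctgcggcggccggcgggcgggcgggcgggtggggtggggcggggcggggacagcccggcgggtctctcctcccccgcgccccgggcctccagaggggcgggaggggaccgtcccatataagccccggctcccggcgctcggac
THBS1: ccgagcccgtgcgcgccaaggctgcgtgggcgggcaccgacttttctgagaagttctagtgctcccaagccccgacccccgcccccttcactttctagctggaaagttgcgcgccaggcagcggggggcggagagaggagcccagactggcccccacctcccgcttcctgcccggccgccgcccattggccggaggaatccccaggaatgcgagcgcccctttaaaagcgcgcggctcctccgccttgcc

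Among the crosslinking enzymes, LOX was low in all lines and higher in each mutant line than in control. Its counts were 13, 17 and 26 in control, 61, 63 and 51 in C321fs, 48, 48 and 30 in Splice del and 47, 35 and 41 in A333fs libraries. Every mutant library lay above every control library in CPM, C321fs lay above the other mutant lines, and Splice del and A333fs overlapped. The level was 0.630 ± 0.242 CPM (SD, n = 3) in control, 1.90 ± 0.269 in C321fs, 1.23 ± 0.187 in Splice del and 1.28 ± 0.211 in A333fs cells. Over control this made a log2 fold change of 1.59 (standard error 0.24) in C321fs, 0.98 (0.26) in Splice del and 1.02 (0.26) in A333fs cells. LOX was thus the only one of the 6 genes with its highest mean in C321fs. This lead over Splice del (0.61 on the log2 scale, 95% interval of the reverse difference -1.02 to -0.20, adjusted p = 0.0701) and over A333fs (0.57, -0.98 to -0.16, adjusted p = 0.0547) did not pass edgeR's test. The exon GC content of LOX is 40.8%, in the lower part of the range over tested genes, and with GC and length dependence taken out its values over control were 1.36 in C321fs, 0.71 in Splice del and 0.74 in A333fs. LOXL2 did not pass the filter, with 7 to 13 counts in control and 4 to 9 in the mutant libraries. In CPM the Splice del libraries lay just under control, the highest at 0.236 and the lowest control library at 0.243, while C321fs and A333fs overlapped control.

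Fibronectin and thrombospondin-1 were the abundant genes of the set, and their order of lines was another one. FN1 had 511, 503 and 475 counts in control, 330, 338 and 459 in C321fs, 458, 404 and 397 in Splice del and 590, 617 and 764 in A333fs libraries. In CPM, A333fs lay above control and control above both Splice del and C321fs without overlap, while the latter pair overlapped. The mean was 16.7 ± 0.619 CPM (SD, n = 3) in control, 12.2 ± 2.45 in C321fs, 12.5 ± 1.13 in Splice del and 20.4 ± 1.80 in A333fs cells. The log2 fold change against control was -0.45 (standard error 0.12), -0.41 (0.12) and 0.29 (0.11) in that order of mutants. FN1 was higher in A333fs than in C321fs by 0.74 (0.11, adjusted p = 1.8e-04) and than in Splice del by 0.71 (0.11, adjusted p = 4.5e-04, edgeR). Splice del stood over C321fs by 0.034, with a 95% interval of -0.20 to 0.27 and an adjusted p of 0.900.

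THBS1, a glycoprotein that binds CD36 and CD47 on cells, gave the most counts of the set. It had 8473, 8542 and 8411 counts in control, 7391, 6185 and 7233 in C321fs, 7471, 6891 and 6274 in Splice del and 9959, 10547 and 12945 in A333fs libraries. The lines fell as for FN1, with A333fs above control and the other mutant lines below it, and Splice del and C321fs overlapped. The level was 284 ± 9.43 CPM (SD, n = 3) in control, 225 ± 9.93 in C321fs, 205 ± 12.9 in Splice del and 346 ± 30.4 in A333fs cells. Against control the log2 fold changes were -0.34 (standard error 0.07), -0.47 (0.07) and 0.28 (0.07), all short of the fold change limit of 1.5. A333fs exceeded Splice del by 0.76 (0.07, adjusted p = 1.6e-06) and C321fs by 0.62 (0.07, adjusted p = 3.7e-06) in edgeR's test. Without A333fs replicate 3 the latter was 0.55, under the fold limit, and with GC and length dependence taken out it was 0.54. Splice del stood under C321fs at -0.13 (95% interval -0.26 to -0.0028, adjusted p = 0.222). Without a scaling factor the median gene moved up by 0.15 to 0.19 against control, and the FN1 values were then -0.28, -0.23 and 0.44 and the THBS1 values -0.18, -0.29 and 0.43.

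TNC was barely counted and POSTN not at all. TNC had 0, 1 and 1 counts in control, 4, 7 and 6 in C321fs, 5, 8 and 3 in Splice del and 1, 9 and 2 in A333fs libraries. Splice del and C321fs thus lay above control and A333fs overlapped it, and at these counts TNC did not enter the fit. Its summed counts stood 7.06 to 1 over control in Splice del (95% counting interval 1.66 to 63.3). The ratios were 8.22 (1.95 to 73.3) in C321fs and 5.57 (1.24 to 51.2) in A333fs cells. POSTN had no count in any library, which allows up to 0.101 CPM in a control library and 0.0902 to 0.0975 CPM in a mutant library at a limit of 3 counts.

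A call is a fold change above 1.5 with an adjusted p under 0.01, and against control the calls of these genes are a description, since the same differences helped to choose them. In Splice del against control 4 of the 10 genes, of which 6 were tested, were called higher (DCN, LUM, SPARC and LOX), where 6.21% of all tested genes were. In C321fs 2 were (SPARC and LOX), with a background of 4.63%, and in A333fs the same 4 as in Splice del, with 5.46%. None was called lower, with backgrounds of 4.53%, 2.26% and 6.81%. The call of LOX in Splice del was lost without replicate 1 or 2 of control or of Splice del, at 0.78 to 0.98. In A333fs it was lost without control replicate 1 or 2 or A333fs replicate 1, at 0.83 to 0.93. Both calls were also lost with GC and length dependence taken out. FN1 became called in C321fs, at -0.62, without C321fs replicate 3. DCN, LUM and SPARC passed the filter on low counts through mutant libraries, where they were high, so their calls are a description for this reason too. These comparisons also share the control libraries, and nothing is read from the numbers of calls. Between mutant lines, 5 genes were tested, without DCN. SPARC was called higher in Splice del than in C321fs, where 1.76% of all tested genes were. SPARC, FN1 and THBS1 were called higher in A333fs than in C321fs (background 2.47%). The same genes and LUM were called higher in A333fs than in Splice del (background 1.03%). LUM is left out of the counts against C321fs for the reason given above. No tested gene of the set was called lower in these pairs, against 0.879%, 3.08% and 1.97% of all tested genes. The 3 pairs share libraries, so their counts are not independent of each other.

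Compared per kilobase of exon, the make-up of the set differed between the lines. THBS1 led in each line, from 28.3 CPM per kb in Splice del to 47.8 in A333fs. FN1 was next in control (1.85 CPM per kb) and in C321fs (1.36), whereas DCN was next in Splice del (2.38) and in A333fs (4.89). SPARC held rank 3 in the mutant lines, at 2.04, 0.481 and 3.32 CPM per kb in Splice del, C321fs and A333fs, and rank 6 in control at 0.0685. In A333fs cells DCN and SPARC thus both exceeded FN1 (2.27 CPM per kb) in level per length, and LUM came close to it at 2.22. DCN was at the floor in the remaining lines.

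**Figure D4:**
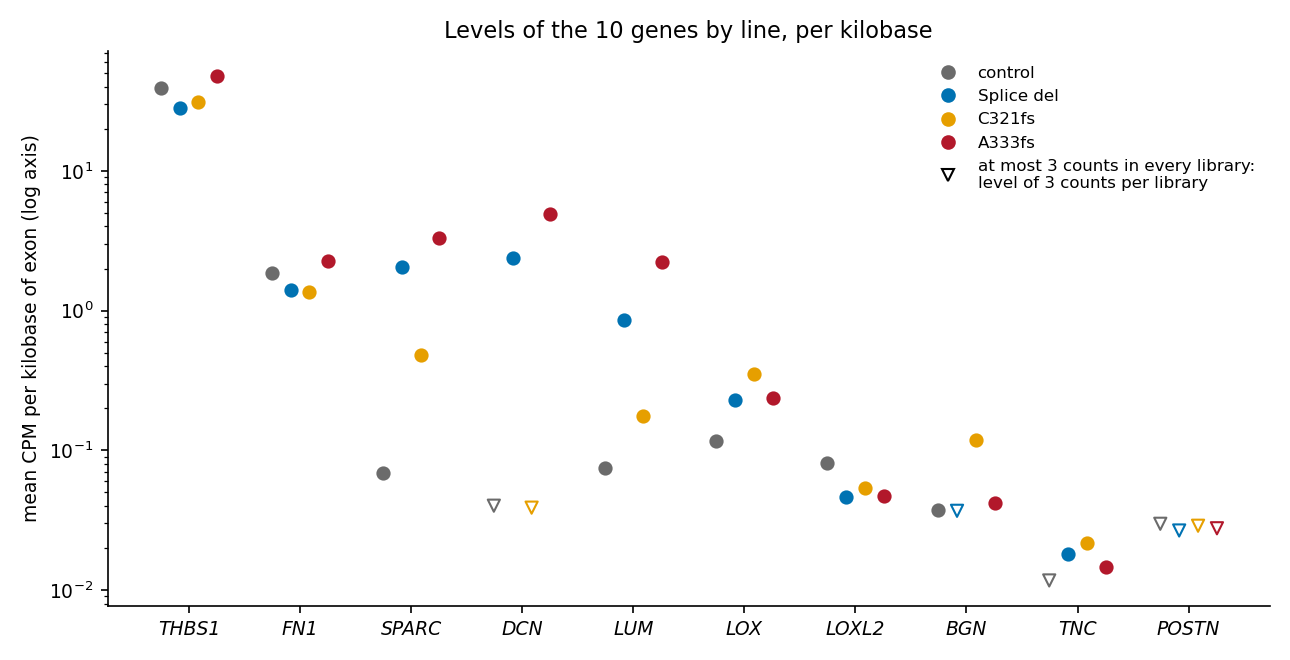
Mean level of the 10 genes in each line as CPM per kilobase of exon, on a log axis. Open triangles mark a line with at most 3 counts in every library, drawn at the level of 3 counts per library. THBS1 stays between 28.3 and 47.8, while DCN and SPARC are above FN1 in Splice del and A333fs cells.

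The genes whose log2 CPM over the 12 libraries was most like that of DCN were BCL2 (Pearson's r = 0.989), an inhibitor of apoptosis, SLC22A23 (0.985) and PTGS1 (0.984), which makes prostaglandin precursors. BCL2 stood at 2.11 CPM in control, 1.84 in C321fs, 6.62 in Splice del and 7.22 in A333fs cells. PTGS1 stood at 0.761, 0.683, 4.08 and 8.37 CPM in the same order. Of the set itself, LUM had an r of 0.941 with DCN, SPARC 0.863, FN1 0.366, THBS1 0.250 and LOX 0.0977. Most like SPARC were CXorf38 (r = 0.995), MARCH5 (0.991), a ubiquitin ligase of mitochondria, and CALD1 (0.990), the actin-binding caldesmon. CALD1 stood at 13.2 CPM in control, 19.5 in C321fs, 28.6 in Splice del and 30.0 in A333fs cells. These correlations describe 12 libraries of 4 pools, so they follow mainly the 4 means, and the genes were picked as the highest of all tested. By Spearman's rho none of the 3 named genes was among the first 3, for DCN or for SPARC.

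The wider matrix was followed in 5 lists of 73 further genes, of which 42 were tested. The lists were drawn up with earlier results of these data known, so p-values of their genes are not independent tests. By the same call, 6 rose and 3 fell in Splice del against control, 7 rose and 2 fell in C321fs, and 7 rose and 4 fell in A333fs. The backgrounds are the percentages given above for these comparisons. PRELP, CHAD, CTGF and EFEMP2, counted here, passed the filter on low counts through mutant libraries, where they were higher. The numbers are therefore a description. The median log2 fold change over the 42 genes was 0.33, 0.14 and 0.26, beside 0.032, 0.021 and 0.0086 over all tested genes. Without a scaling factor the numbers were 12 and 2, 8 and 1, and 10 and 3, and with upper-quartile scaling 10 rose and 3 fell in A333fs. Without control replicate 1, 3 of these genes rose in Splice del.

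Of 15 other small leucine-rich proteoglycans 6 were tested, with medians of 0.078, -0.31 and 0.21 in Splice del, C321fs and A333fs. PRELP stood 2.29 over control on the log2 scale in A333fs (standard error 0.49), from 0.111 to 0.559 CPM, and 1.63 in Splice del without a call. CHAD, chondroadherin, stood 1.25 (0.32) over control in Splice del, and 0.91 and 0.81 in C321fs and A333fs without a call. Both were low in control, CHAD at 0.236 CPM. They passed the filter on low counts through mutant libraries, where they were higher, so no p-value is given. TSKU, tsukushi, the most abundant of the list, fell from 92.4 ± 6.37 CPM (SD, n = 3) to 48.8 ± 3.61 in Splice del and 36.9 ± 1.14 in A333fs cells. In C321fs it stood at 62.0 ± 5.49 CPM, under all control libraries but short of the fold limit at -0.58. CHADL also fell in A333fs, by 1.39, and stood at -0.85 in Splice del without a call. The proteoglycans other than DCN and LUM therefore went in both directions.

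In the SPARC family 3 of 7 further genes were tested and none was called in any line, with medians of 0.51, 0.34 and 0.28. SPARCL1 stood at 0.84 (standard error 0.38) in A333fs, from 0.214 to 0.382 CPM, over the fold limit but without a call. Among 14 enzymes that crosslink or modify collagen, 11 were tested. TGM2, a transglutaminase that crosslinks fibronectin, fell in all 3 lines, by 2.06 in C321fs, 1.88 in Splice del and 1.20 in A333fs. The hydroxylases PLOD2 and P4HA1 rose in C321fs by 0.67 (0.08, adjusted p = 8.9e-06) and 0.81 (0.06, adjusted p = 3.3e-07, edgeR). Both lay above all control libraries in the other lines too, short of the fold limit, PLOD2 at 0.48 in Splice del and 0.32 in A333fs and P4HA1 at 0.49 and 0.32. LOXL1, named after its values were seen because it was the remaining enzyme called there, rose in C321fs by 1.00 and stood at 0.64 and 0.34 in Splice del and A333fs. LOXL3 fell in A333fs by 0.67 and stood at -0.54 in Splice del, short of the fold limit. The list medians were 0.18, 0.044 and -0.014.

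Of 21 further matricellular genes 9 were tested, with medians of 0.34, 0.39 and 0.72. WISP2, also known as CCN5, rose in all 3 lines by 0.87, 0.82 and 1.01, from 11.4 ± 1.70 CPM (SD, n = 3) in control to 20.2 to 23.1 CPM. CTGF, or CCN2, rose in A333fs by 2.98 (standard error 0.27), from 0.281 to 2.23 CPM. It passed the filter on low counts through mutant libraries, where it was higher, so no p-value is given. Its relative CYR61, or CCN1, fell by 0.72 in both Splice del and C321fs and stood 0.49 under control in A333fs, below the fold limit. FBLN1, fibulin-1, rose in Splice del by 0.93 and in A333fs by 1.24, and in C321fs, at 0.87 with an adjusted p of 0.0102 from edgeR, it narrowly missed the call. EFEMP2, a fibulin named after its values were seen as the remaining called gene, rose in Splice del by 1.64 and in C321fs by 1.38 and stood at 0.72 in A333fs.

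The receptors of these proteins were tested for 13 of 16 genes, and none was called lower. SDC1, syndecan-1, was named after its values were seen and is given without a p-value. It stood lower in A333fs at 100.2 ± 1.24 CPM (SD, n = 3) against 143 ± 10.2 in control. The log2 fold change of -0.51 was short of the fold limit. The list medians were 0.33, 0.093 and 0.24. CD36, which binds thrombospondin-1 and fatty acids, rose in all 3 lines, from 2.67 ± 0.430 CPM (SD, n = 3) in control to 4.11 ± 0.156 in Splice del, 8.54 ± 0.505 in A333fs and 21.5 ± 1.74 in C321fs cells. ITGB6, the epithelial integrin subunit that binds fibronectin and latent TGF-beta, rose by 1.67, 1.51 and 1.19. CD47 rose in A333fs by 0.92 (0.05, adjusted p = 8.2e-10 from edgeR), and stood 0.40 and 0.36 over control in Splice del and C321fs.

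**Figure D5:**
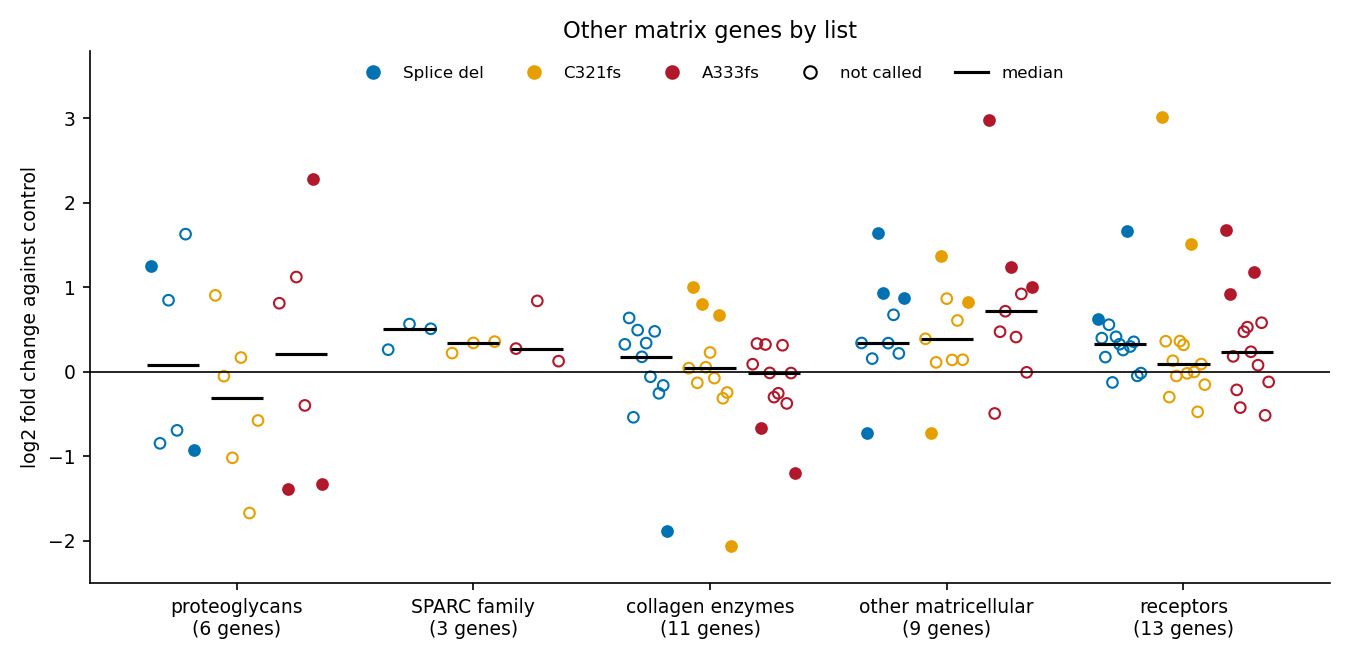
Log2 fold change against control of the tested genes in 5 lists of other matrix genes. Filled points passed the adjusted p of 0.01 and the fold change limit of 1.5, open points did not, and black lines are list medians. CTGF in A333fs (2.98) and CD36 in C321fs (3.01) are the highest points.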

How the data were processed

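Counts per gene of 12 RNA-seq libraries were used, and the ChIP-seq of the same series was not analysed here. The authors trimmed the reads, aligned them to hg38 and deposited raw counts of paired fragments on 26485 genes from featureCounts 1.6.4, without strand and without normalization. The aligner is HISAT2 in the submitters' processing notes, while the file header carries a STAR folder name. The 10 genes, the marker and matrix lists and the tests were chosen with earlier results of these data known.

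Genes were filtered with filterByExpr by line, scaled by TMM and fitted with edgeR 4.0.16 in R 4.3.3 (glmQLFit and glmQLFTest, 1 coefficient per line, all 12 libraries). Adjusted p-values (Benjamini-Hochberg) cover all 14789 tested genes, and standard errors are the log2 fold change over the square root of F. A line with at most 3 counts in every library was at the floor. Intervals of count ratios cover counting error only, and those of log2 differences come from the standard error. Log2 CPM for correlations used a prior count of 2. The procedure was tested on simulated data.

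Named beside the 10 genes were the 3 tested genes most like DCN and SPARC, at most 4 called genes per list with the highest mean CPM, the nearest tested genes on each side with KERA and EPYC, and the most abundant markers. Alternatives were other scalings, no filter, DESeq2 1.42.0, a fit to 2 lines, a replicate term, an adjusted p of 0.05, each library left out, another floor and Spearman's rho. A correction that took out a loess trend (span 0.3) over exon GC and length was chosen after seeing the data.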

Additional observations from a re-analysis of the deposited data

Results flagged for a closer look

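The effect against control differed between mutant lines, by edgeR's test of the difference itself, for SPARC, FN1 and THBS1, and for LUM between A333fs and Splice del. The difference of the log2 effects of A333fs and C321fs was 2.79 for SPARC, 0.74 for FN1 and 0.62 for THBS1. Between A333fs and Splice del it was 1.34 for LUM, 0.71 for SPARC, 0.71 for FN1 and 0.76 for THBS1. Between Splice del and C321fs it was 2.08 for SPARC. The values of LUM against C321fs, 3.62 in A333fs and 2.28 in Splice del, are a description, because LUM passed the filter on low counts only through the lines where it was high. For FN1 and THBS1 the A333fs effect was above 0 and the others were below it.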

How the results depend on the processing

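Of 209 recomputed values of the tested genes against control, 7 moved by more than the spread between replicates and none of the called ones reversed. This rule does not count changes of call, which LOX and FN1 showed against control as given above. Of 239 recomputed values between mutant lines, 2 changed their side of the threshold, both for THBS1 in A333fs against C321fs. That value was 0.54 with the GC and length trend removed and 0.55 without A333fs replicate 3. The numbers of genes called between mutant lines stayed within 1.5 times under each alternative run. With no filter on low counts 3 genes were called in Splice del against C321fs. The addition was BGN, which was at the floor in Splice del, so nothing is read from that call.

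The other matrix genes called higher in Splice del were 12 with no scaling factor and 3 to 6 when 1 library was left out, the lowest without control replicate 1. Those called lower were 1 in C321fs with no scaling factor and 2 in A333fs with the GC and length trend removed. The cause was not tested. With the floor taken over the summed libraries of C321fs, the DCN ratios were 184 in Splice del and 379 in A333fs. The summed DCN counts of control, 6, exceeded that floor, so it was not used there.

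Replicate numbers did not pair the libraries, since residuals of libraries with the same number had correlations of -0.12 to 0.17. With the replicate block, 2, 4 and 4 genes, LUM included, were called in the 3 pairs of mutant lines, and no call changed. At these depths LOXL2, BGN, TNC and POSTN lie near the limit of 3 counts per library, about 0.1 CPM, and differences among them were mostly not detectable.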

Other observations

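BGN had 27 summed counts in C321fs and 3 in Splice del. Splice del was at the floor for BGN and BGN did not pass the filter, so no fold change or p-value is given. Per scaled library size, its summed counts stood 0.102 to 1 over C321fs in Splice del (95% counting interval 0.0197 to 0.330). The same ratio was 0.356 (0.154 to 0.758) in A333fs cells. HAUS7, whose annotated span overlaps that of BGN, stood at 15.2 ± 1.46 CPM (SD, n = 3) in control, 10.9 ± 0.930 in C321fs, 9.19 ± 0.0690 in Splice del and 9.82 ± 0.776 in A333fs cells. It fell in Splice del by 0.72 and in A333fs by 0.63 and was not called in C321fs at -0.47.

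Among the other tested neighbours of the 10 genes, TREX2, a nuclease gene beside BGN, fell in A333fs by 1.13 (0.27, adjusted p = 0.00192, edgeR). SRFBP1 beside LOX, ATIC beside FN1, FSIP1 beside THBS1, and R3HCC1 and ENTPD4 beside LOXL2 were not called in any mutant line. Their log2 fold changes lay between -0.49 and 0.49. The annotated span of FSIP1 lies 1110 bases beyond that of THBS1. FSIP1 stood at 1.52 ± 0.451 CPM (SD, n = 3) in control and 1.98 ± 0.124 in A333fs cells.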
